A study of Rattus norvegicus with 9 samples.

Results

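The fibroblast growth factor (FGF) ligands Fgf1, Fgf2, Fgf7, Fgf9 and Fgf10 and the receptors Fgfr1, Fgfr2, Fgfr3 and Fgfr4 were followed in tissues that form the collecting system of the rat kidney. All probe sets annotated with 1 of these 9 symbols and with no other gene were taken, which gave 18 of the 31099 probe sets on the array, against 14217 genes named by a single symbol. Total RNA of Sprague-Dawley rat embryos at embryonic day 13 had been hybridised to single-colour Affymetrix arrays, 3 for each of 3 tissues, and no tissue had been cultured. UB is the ureteric bud, which was freed from the kidney rudiment with a light trypsin digestion, and WD is the Wolffian duct, dissected with no enzyme. WD+IM is the Wolffian duct with mesodermal cells still attached. About 100 buds, 100 ducts or 50 ducts with mesoderm were pooled for an array, and the sample titles name the 3 arrays of each tissue biological replicates. Bud against duct therefore also compares digested with undigested tissue, and these cannot be told apart.

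FGF receptors are receptor tyrosine kinases that bind FGF ligands together with heparan sulphate. Through the docking protein Frs2 they switch on kinase cascades inside the cell, and the Sprouty proteins and the phosphatase Dusp6 are induced by the same signal and restrain it. Fgfr1, Fgfr2 and Fgfr3 are spliced into IIIb forms, typical of epithelia, and IIIc forms, typical of mesenchyme. Fgf7 and Fgf10 act on the IIIb form of Fgfr2. The ureteric bud grows out of the Wolffian duct under Gdnf-Ret signalling, and FGF signals from the surrounding mesenchyme through epithelial Fgfr2 support its growth and branching.

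The windows just upstream of 3 receptor genes are shown here because the mean signals of Fgfr2 and Fgfr3 were highest in WD and that of Fgfr4 in UB. They come from RefSeq (rat build GRCr8), cover the 250 bases before the annotated start and are written 5′ to 3′ on the gene's strand. All 3 genes lie on the minus strand. Capitals mark GGGCGG read on either strand, so that CCGCCC is the same motif on the other strand.
Fgfr2, chr1:194280915-194281164: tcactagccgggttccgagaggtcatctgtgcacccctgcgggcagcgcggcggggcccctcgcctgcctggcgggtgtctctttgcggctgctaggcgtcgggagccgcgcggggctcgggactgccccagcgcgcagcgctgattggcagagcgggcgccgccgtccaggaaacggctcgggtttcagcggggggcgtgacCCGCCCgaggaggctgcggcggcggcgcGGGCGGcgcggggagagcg
Fgfr3, chr14:81227210-81227459: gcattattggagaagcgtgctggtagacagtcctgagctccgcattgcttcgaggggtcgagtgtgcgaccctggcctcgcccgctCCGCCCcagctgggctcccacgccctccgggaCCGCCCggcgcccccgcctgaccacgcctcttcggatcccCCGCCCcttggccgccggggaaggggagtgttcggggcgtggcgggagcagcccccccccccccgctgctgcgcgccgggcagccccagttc
Fgfr4, chr17:9481390-9481639: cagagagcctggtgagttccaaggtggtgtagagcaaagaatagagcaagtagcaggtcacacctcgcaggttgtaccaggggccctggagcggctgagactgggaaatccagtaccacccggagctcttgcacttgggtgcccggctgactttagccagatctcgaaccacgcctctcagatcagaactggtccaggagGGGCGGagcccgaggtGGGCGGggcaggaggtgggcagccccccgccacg

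The Fgfr2 window held GGGCGG 2 times, the Fgfr3 window 3 times and the Fgfr4 window 2 times. The motif was present in 30.47% of 33469 RefSeq promoter windows of the same length. The G and C content was 76.8% for Fgfr2, 74.4% for Fgfr3 and 62.8% for Fgfr4, where the median over all windows was 51.2%. The windows of Fgfr2, Fgfr3 and Fgfr4 held 37, 26 and 11 CpG dinucleotides, against a median of 5. Neither TATAAA (in 12.93% of all windows) nor CCGGAA (in 12.6%), both searched on both strands, occurred in the 3. RefSeq windows were matched for 8 of the 9 members, and the 5 ligand windows held no GGGCGG. These are letters in a window, and no array value bears on whether a protein binds there.

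The arrays had been scaled by the authors to 1 trimmed mean, and a probe set's signal is given below in those intensity units, with the SD over n = 3 arrays. Differences and their standard errors (SE) are on a log2 scale, log2(intensity + 46.4), from a limma fit over all 9 arrays, and a gene was called at a Benjamini-Hochberg adjusted p under 0.05. Signals of different probe sets depend on the probes and were not set against each other. Arrays of 1 tissue correlated at r = 0.93 to 0.98 over probe sets, and arrays of different tissues at r = 0.83 to 0.92. The arrays fell into 2 sets by the ratio of 2 spiked bacterial control transcripts (bioC over bioB). This ratio was 2.88 to 2.99 on the 3 UB arrays and the third WD+IM array and 1.02 to 1.24 on the other 5, and the 10th percentile of intensity was 26.9 to 35.4 on the first set and 55.8 to 77.2 on the second. The set thus separates all UB from all WD arrays. Its part in a difference is given below as the value from a fit with this set as a batch term, which only the WD+IM arrays inform. In that fit UB minus WD+IM is the difference of the UB arrays from the single WD+IM array of high ratio. RNA integrity, read from beta-actin as 3′ over 5′ signal, gave 1.48 to 2.30 in UB, 2.19 to 4.87 in WD and 1.47 to 1.92 in WD+IM.

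The tissue labels were set against marker genes. The summed intensity of 14 duct epithelial markers was 259069 to 279249 in UB, 254575 to 275952 in WD and 81285 to 119275 in WD+IM. Without Ret, which is also a bud tip marker, the sum of the other 13 was 220182 to 231557 in UB, 246407 to 268566 in WD and 79949.8 to 117260.5 in WD+IM, so that UB lay below WD. Of the 14 duct markers 3 were higher and 4 lower in UB than in WD. The sum of 5 bud tip markers was 90496 to 103820 in UB, 17679 to 19944 in WD and 6985 to 8943 in WD+IM. The sum of 11 mesenchyme and stroma markers was 10954 to 16759 in UB, 160524 to 186672 in WD and 288137 to 343000 in WD+IM, so the array signal of the isolated ducts included mesenchymal markers. That of 8 endothelial markers was 1708 to 2526 in UB, 4014 to 5157 in WD and 34963 to 36005 in WD+IM, and 5 red cell markers summed to 2751 to 7653, 77538 to 131666 and 75651 to 120202. These cell mixtures move with every comparison below, and their part in the differences was not tested. In such bulk samples fewer cells of a type and less RNA per cell cannot be told apart.

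Of the 9 genes, 6 reached the filter on low signal: all 4 receptors and the ligands Fgf9 and Fgf10. Fgf10 reached it only through its 3 UB arrays, so the counts and medians over the 6 genes are a description. Between UB and WD, Fgfr1, Fgfr2 and Fgfr3 were lower in UB and none of the 6 was called higher, where 33.0% of all 10809 tested genes were called, 19.6% lower and 13.3% higher. Between WD+IM and WD, Fgfr1 was higher in WD+IM and Fgfr2, Fgfr3 and Fgfr4 were lower, where 14.7% of genes were called, 6.49% higher and 8.23% lower. Between UB and WD+IM, Fgfr4 was higher in UB and Fgfr1 and Fgfr3 were lower, where 30.3% of genes were called, 13.6% higher and 16.6% lower. The median difference of the 6 genes was -0.33 for UB minus WD, -0.70 for WD+IM minus WD and 0.27 for UB minus WD+IM, and over all tested genes it was -0.08, -0.01 and -0.01. The ranges of the 2 tissues did not overlap for 4, 4 and 3 of the 6 genes, which held for 51.8%, 32.4% and 49.9% of all tested genes. By probe set, 4 of the 10 tested were called in each comparison, and 8 were not tested. For UB against WD all 4 were lower, of which Fgfr2 E, described below, lay under the filter's percentile on every UB array, where 29.9% of all 20330 tested probe sets were called, 11.3% higher and 18.6% lower. For WD+IM against WD 1 was higher and 3 lower, with 12.7% of all called, 5.62% higher and 7.06% lower. For UB against WD+IM 1 was higher and 3 lower, with 25.5% of all called, 11.0% higher and 14.5% lower. The 3 comparisons share arrays and do not count as separate evidence.

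**Figure D1:**
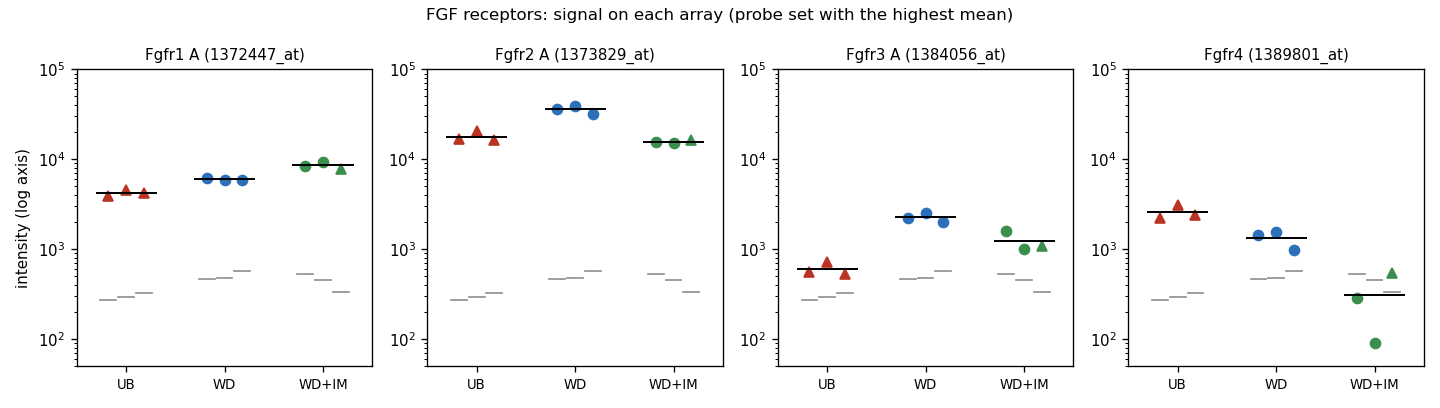
Signal of the highest probe set of each FGF receptor on every array (intensity units, log axis), by tissue. Triangles are arrays with a bioC over bioB ratio above 2, circles the other arrays, black bars the means of 3 arrays and grey ticks each array's 40th percentile. Fgfr1 is lowest in UB and highest in WD+IM, Fgfr2 and Fgfr3 are highest in WD, and Fgfr4 is lowest in WD+IM.

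Fgfr1, a receptor widely used in mesenchyme, had its lowest signal in UB and its highest in WD+IM. Where a gene has several probe sets, letters name them from the brightest (A) down by mean intensity over the 9 arrays. Probe set Fgfr1 A read 3895, 4529 and 4251 on the 3 UB arrays, 6143, 5916 and 5879 on the WD arrays, and 8479, 9311 and 7850.0 on the WD+IM arrays. No 2 tissues overlapped. The mean was 4225 ± 318 (SD, n = 3) in UB, 5979.7 ± 143 in WD and 8547 ± 733 in WD+IM. UB was 1.42-fold lower than WD, a log2 difference of -0.50 ± 0.13 (SE; adjusted p = 0.0142). WD+IM was 1.43-fold higher than WD (log2 0.51 ± 0.13, adjusted p = 0.024), and UB was 2.02-fold lower than WD+IM (log2 -1.01 ± 0.13, adjusted p = 1.05e-04). The order UB, WD, WD+IM was also that of the mesenchymal and endothelial marker sums. Markers of muscle and of nephron progenitors with coelomic mesoderm summed in the same order. The part of any of these cells in the Fgfr1 signal was not tested. With the spike batch term the difference of UB from WD was -0.32 ± 0.23 (adjusted p = 0.512), with each array centred on its median it was -0.36 (adjusted p = 0.0829), and without the first UB array it was -0.44 (adjusted p = 0.0726). The call for WD+IM against WD was lost when any 1 of the first WD, the second WD or the second WD+IM array was left out (adjusted p = 0.0514, 0.0525 and 0.0912). That for UB against WD+IM was kept in every alternative that holds more than 1 WD+IM array. Among these alternatives, the difference with the spike batch term rests on the single WD+IM array of high ratio.

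The second probe set, Fgfr1 B, had the same order of means, 1998 ± 591 in UB, 2961 ± 792 in WD and 4621 ± 1217 in WD+IM. Its UB and WD arrays overlapped, and so did its WD and WD+IM arrays. The test was passed for UB against WD+IM (log2 -1.20 ± 0.28, adjusted p = 0.00744), and neither UB against WD (-0.56 ± 0.28, adjusted p = 0.149) nor WD+IM against WD (0.64 ± 0.28, adjusted p = 0.164) passed it.

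Fgfr2, the receptor through which Fgf7 and Fgf10 reach epithelium, had its highest signal in the isolated Wolffian duct. Probe set Fgfr2 A read 36033, 39562 and 32303 on the WD arrays, 16781, 20520.4 and 16376 on the UB arrays, and 15509.5, 15363 and 16395 on the WD+IM arrays. Every WD array lay above all 6 others, and the UB and WD+IM arrays overlapped. The mean was 35966 ± 3629.9 (SD, n = 3) in WD, 17892 ± 2285 in UB and 15756 ± 558 in WD+IM. UB was 2.01-fold lower than WD (log2 -1.01 ± 0.13, adjusted p = 1.48e-04) and WD+IM was 2.28-fold lower (log2 -1.18 ± 0.13, adjusted p = 1.46e-04). UB and WD+IM differed by 0.18 ± 0.13 (adjusted p = 0.361), with a 95% interval from -0.10 to 0.45. The lower signal in UB was called in all 22 alternatives, with differences from -1.14 to -0.86. Over the same tissues the duct epithelial marker sum without Ret was 246407 to 268566 in WD, 220182 to 231557 in UB and 79949.8 to 117260.5 in WD+IM. Its UB and WD+IM arrays were thus apart, where those of Fgfr2 A overlapped. With Ret included, the UB and WD sums overlapped. The part of duct epithelium in the Fgfr2 signal was not tested.

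**Figure D2:**
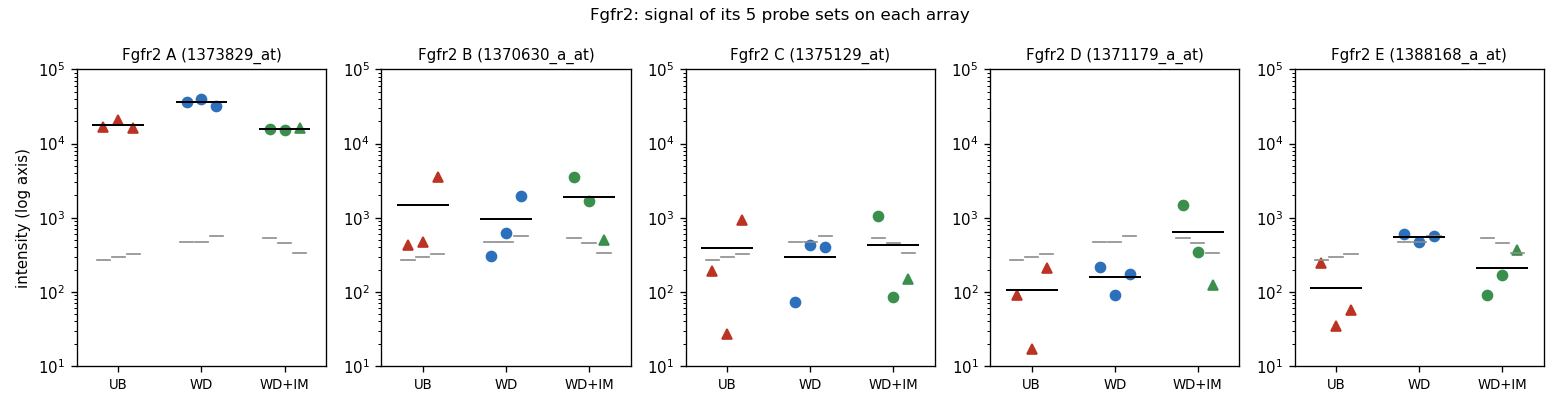
Signal of the 5 Fgfr2 probe sets on every array (intensity units, log axis), by tissue, with symbols as for the receptors. In probe sets A and E all WD arrays lie above all others, and in B, C and D the tissues overlap.

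The 5 probe sets annotated to Fgfr2 did not share 1 pattern. The dimmest, Fgfr2 E, read 612, 476 and 572 in WD, 248, 34.8 and 56.7 in UB, and 90.9, 167 and 364 in WD+IM, so all WD arrays lay above the other 6. It lay above the array's 40th percentile on all 3 WD arrays, 1 WD+IM array and 0 UB arrays. It thus passed the filter mainly through the tissue where it was high, and its differences are not given on their own. Fgfr2 E still counts among the probe sets called lower for UB against WD, and it enters the average given below. The log2 values of Fgfr2 E correlated with those of Fgfr2 A at r = 0.68 over the 9 arrays, which share tissues and scaling.

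Probe set Fgfr2 B read 426, 469.5 and 3591 in UB, 304, 616 and 1976 in WD, and 3549, 1708 and 498 in WD+IM. The spread within a tissue was wider than that between tissues, and no comparison passed the test (adjusted p = 0.502 to 0.812). In each tissue its highest value came from the array with the lowest actin 3′ over 5′ ratio, 1.48 in UB, 2.19 in WD and 1.47 in WD+IM. The part of RNA integrity in this spread was not tested. Its correlation with Fgfr2 A was r = -0.38. Fgfr2 C (27.1 to 1066) and Fgfr2 D (17.0 to 1471) exceeded their array's 40th percentile on 2 and 1 of 9 arrays and were not tested. When the 3 tested probe sets (A, B and E) were averaged, WD+IM against WD was no longer called for Fgfr2 (-0.54 ± 0.26, adjusted p = 0.193). No source used here assigns these probe sets to the IIIb or IIIc form.

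Fgfr3, a receptor of epithelia and skeletal growth plates, was also highest in WD, and its 3 tissues were fully separated. Probe set Fgfr3 A read 2201, 2551 and 2018 in WD, 1606, 1001 and 1074 in WD+IM, and 559, 727 and 536 in UB. The mean was 2257 ± 270.4 (SD, n = 3), 1227 ± 330.4 and 607 ± 104 in that order. UB was 3.72-fold lower than WD (log2 -1.82 ± 0.24, adjusted p = 1.94e-04). WD+IM was 1.84-fold lower than WD (log2 -0.88 ± 0.24, adjusted p = 0.0309), and UB was 2.02-fold lower than WD+IM (log2 -0.94 ± 0.24, adjusted p = 0.0115). With the spike batch term these differences were -1.59 ± 0.44 (adjusted p = 0.0753), -0.80 ± 0.27 (adjusted p = 0.0914) and -0.79 ± 0.34 (adjusted p = 0.194). The call for WD+IM against WD was also lost without the first WD, the second WD, the second WD+IM or the third WD+IM array (adjusted p = 0.0749, 0.108, 0.104 and 0.0919). Fgfr3 B read 100.4 to 510.0 and stayed below the 40th percentile on every array.

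Fgfr4, a receptor that lacks the IIIb and IIIc choice, ran the other way from Fgfr1. Its single probe set read 2242, 3063 and 2400.0 in UB, 1445, 1557 and 978 in WD, and 288, 90.1 and 546 in WD+IM. The tissues did not overlap, with UB highest and WD+IM lowest. The mean was 2568 ± 436 (SD, n = 3) in UB, 1327 ± 307 in WD and 308 ± 229 in WD+IM. Only 1 of the 3 WD+IM values lay above its array's 40th percentile, so the differences from WD+IM are set against a signal that was mostly low. WD+IM was lower than WD (log2 -2.17 ± 0.43, adjusted p = 0.00582; -1.77, adjusted p = 0.168, with actin integrity as a covariate). UB was higher than WD+IM (log2 3.11 ± 0.43, adjusted p = 1.74e-04). This call was kept in every alternative that holds more than 1 WD+IM array, with differences from 2.13 to 3.60. The difference with the spike batch term again rests on the single WD+IM array of high ratio. UB against WD, 1.94-fold in the means, did not pass the test (log2 0.94 ± 0.43, adjusted p = 0.117). That difference passed in a fit of these 2 tissues alone (adjusted p = 0.0119) and without the second WD+IM array (adjusted p = 0.0272), and it was -0.53 (adjusted p = 0.699) with the spike batch term. Of 14 duct epithelial markers, 12 were lower and 0 higher in WD+IM than in WD, with a median log2 difference of -1.65. Of all genes 8.23% were lower and 6.49% higher there. Between UB and WD, where the Fgfr4 mean was higher in UB, 3 of the 14 were higher and 4 lower in UB. Of all genes 13.3% were higher and 19.6% lower there. The part of duct cells in the Fgfr4 signal was not tested.

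**Figure D3:**
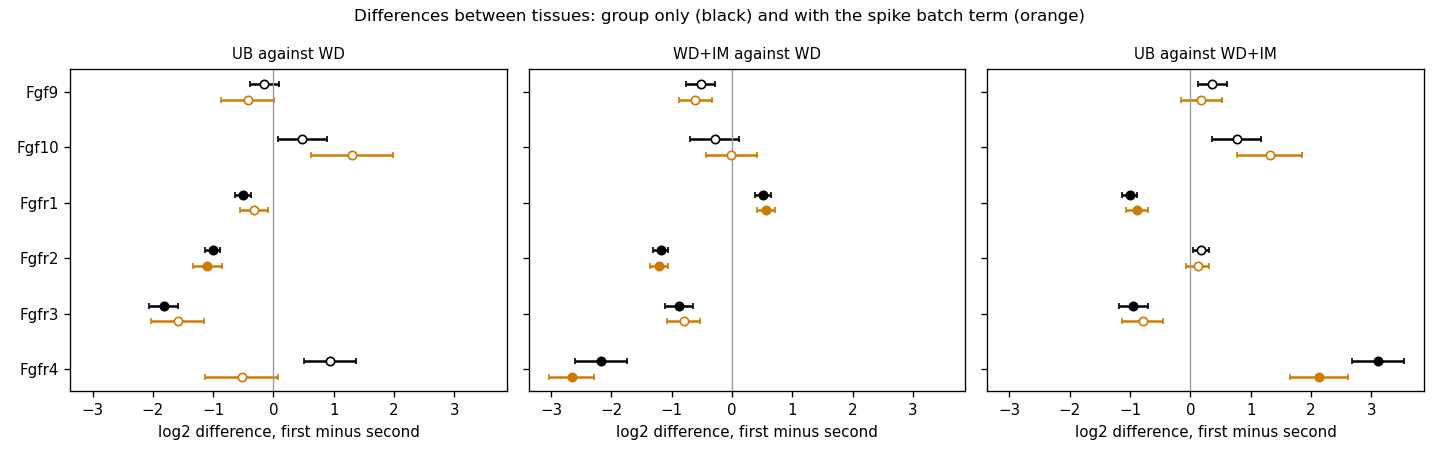
Log2 differences of the 6 tested FGF genes in the 3 comparisons, from the fit by tissue alone (black) and with the spike set as a batch term (orange). Bars are standard errors, and filled symbols are called at an adjusted p under 0.05. Fgf10 passed the filter only through UB. With the batch term UB against WD keeps only the call for Fgfr2. For UB against WD+IM the symbols of Fgfr1 and Fgfr4 stay filled, but that difference rests on the single WD+IM array of high spike ratio.

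Within the 5 arrays of low spike ratio, WD+IM minus WD was 0.57 ± 0.18 for Fgfr1 (adjusted p = 0.0896), -1.21 ± 0.16 for Fgfr2 (adjusted p = 0.00276), -0.80 ± 0.28 for Fgfr3 (adjusted p = 0.129) and -2.66 ± 0.48 for Fgfr4 (adjusted p = 0.00936). The 4 arrays of high ratio hold a single WD+IM array, which has no spread of its own, and UB minus WD+IM there was -0.89 for Fgfr1, 0.12 for Fgfr2, -0.79 for Fgfr3 and 2.13 for Fgfr4, given with no test. Neither set holds both UB and WD, so that comparison has no value within a set.

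None of the 5 ligands was called in any comparison, and 3 of them were too dim to be tested. Fgf9, a ligand that signals in both epithelium and mesenchyme of the developing kidney, passed the array's 40th percentile on all 9 arrays. Probe set Fgf9 A read 2039.8, 2598 and 2152 in UB, 2416, 2905 and 2249 in WD, and 2279, 1163 and 1979 in WD+IM. The 3 tissues overlapped. The differences were -0.15 ± 0.24 for UB minus WD (adjusted p = 0.657; 95% interval -0.68 to 0.37), -0.52 ± 0.24 for WD+IM minus WD (adjusted p = 0.184; -1.04 to 0.01) and 0.36 ± 0.24 for UB minus WD+IM (adjusted p = 0.311; -0.16 to 0.89). Fgf9 B read 905, 941 and 1179 in UB, 429.7, 1112 and 1199 in WD, and 1259.5, 898 and 392 in WD+IM, and passed no test either (adjusted p = 0.602 to 0.892). The pair of Fgf9 probe sets correlated at r = 0.10 over the 9 arrays.

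Fgf10, the mesenchymal ligand of epithelial Fgfr2 in lung and kidney, was near the filter. Its probe set read 446, 386 and 597 in UB, 309, 276 and 393 in WD, and 256, 397 and 161 in WD+IM. It lay above the array's 40th percentile on all 3 UB arrays and on 0 of the 6 WD and WD+IM arrays. The mean was 476 ± 109 (SD, n = 3) in UB, 326 ± 60.4 in WD and 271 ± 119 in WD+IM, with overlap between the ranges in each comparison. The WD and WD+IM values show only that the signal there was low, and no difference is given.

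Fgf1, Fgf2 and Fgf7 stayed below the 40th percentile of intensity on every array, so that their values show only that the signal was low. Fgf2, a mesenchymal and epithelial mitogen, read 69.7, 115 and 167 in UB, 262, 152 and 291 in WD, and 313, 298 and 165 in WD+IM. Fgf7, which stimulates epithelial growth from the stroma, read 79.6, 60.6 and 38.6 in UB, 54.0, 154 and 277 in WD, and 93.3, 180.5 and 12.7 in WD+IM. The 3 Fgf1 probe sets read between 18.8 and 396. With no filter none of the 3 genes was called in any comparison (adjusted p = 0.136 to 0.919). At these signals a difference in these ligands was not detectable, which does not show that they are absent.

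**Figure D4:**
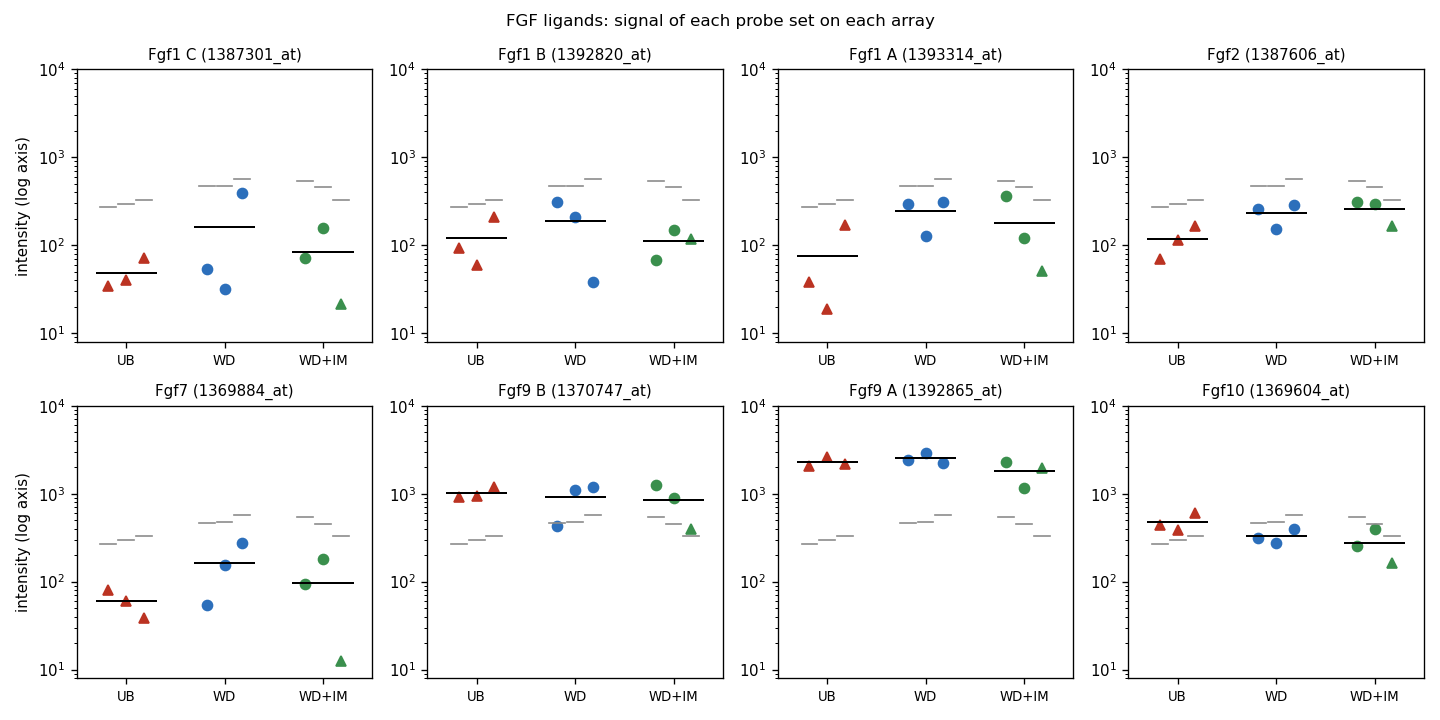
Signal of every probe set of the 5 FGF ligands on every array (intensity units, log axis), by tissue, with symbols as for the receptors and each array's 40th percentile as a grey tick. Fgf9 A lies above the ticks on all 9 arrays, Fgf9 B on 8 and Fgf10 on 3, while Fgf1, Fgf2 and Fgf7 lie below them throughout.

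Of 13 other secreted FGF ligands, 12 did not reach the filter, with signals of 9.0 to 641. Fgf8 and Fgf20, which with Fgf9 act in the nephron progenitors, were among these 12, at 33.1 to 271 and 15.4 to 439. Fgf18 was the only one tested, with 2066, 1570.1 and 1897 in UB, 919, 1015 and 1588 in WD, and 1204, 1737 and 1539 in WD+IM. It was not called for UB against WD (log2 0.66 ± 0.24, adjusted p = 0.0584). The same difference was called higher in UB under 6 alternatives: quantile normalization (0.87, adjusted p = 0.0367), median centring (0.80, 0.0302), array weights (0.80, 0.0122), averaged probe sets (0.66, 0.0472), and without the third WD array (0.89, 0.0172) or the first WD+IM array (0.66, 0.0497). The intracellular FGF homologous factors, which resemble FGFs but are not secreted and bind sodium channels, gave 2 tested genes of 4. Of these, Fgf13 had its lowest mean in UB and its highest in WD+IM. Fgf13 had means of 3348 ± 299 in UB, 5661 ± 488 in WD and 13647 ± 1749 in WD+IM, with log2 differences of -0.75 ± 0.14 for UB minus WD (adjusted p = 0.00271) and 1.26 ± 0.14 for WD+IM minus WD (adjusted p = 2.08e-04). Fgf12 had means of 110.5 ± 42.6, 317 ± 112 and 1869 ± 784, and lay above the array's 40th percentile on all 3 WD+IM arrays and on 0 UB and 0 WD arrays. It was thus tested only through WD+IM, and its UB and WD values show only low signal.

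Coreceptors and FGF-binding proteins gave 9 tested genes of 13, of which 1 was higher and 5 lower in UB than in WD (median -0.92), where 33.0% of all genes were called and their median was -0.08. In WD+IM against WD 3 were higher and 2 lower (median 0.56), against 14.7% and -0.01 for all genes. In UB against WD+IM 2 were higher and 5 lower (median -0.62), against 30.3% and -0.01. Flrt1, lower in both UB comparisons, lay above the array's 40th percentile on 3 WD+IM, 1 WD and 0 UB arrays. It thus entered these counts and medians mainly through the tissue where it was high. A filter at the 50th percentile left 8 genes, without Flrt1. Of these, 1 was higher and 4 lower in UB than in WD (median -0.90), and 2 were higher and 4 lower than in WD+IM (median -0.49). Flrt3, a membrane protein that binds FGF receptors and promotes their signal, read 2180.1, 1599 and 1813 in UB, 13747, 12353 and 12085 in WD, and 17355, 18809 and 20391 in WD+IM. Each UB array lay far below the others, and the UB minus WD difference was -2.75 ± 0.14 (adjusted p = 1.25e-07). Its relative Flrt2 (-1.81 ± 0.23, adjusted p = 1.29e-04) and N-cadherin (Cdh2), an adhesion protein that interacts with Fgfr1 (-3.14 ± 0.23, adjusted p = 1.52e-06), were also lower in UB than in WD. These 3 calls were kept with the spike batch term. The calls of UB against WD for L1cam, Flrt1 and Fgfrl1 were not kept, and Flrt1 lay below the array's 40th percentile on all UB arrays. Fgfrl1, an FGF receptor without a kinase domain that is needed for nephron formation, had means of 3095 ± 336 in UB, 2094 ± 544 in WD and 3721 ± 386 in WD+IM. It was higher in WD+IM than in WD (0.84 ± 0.20, adjusted p = 0.0163; 0.0572 with the batch term). L1cam, a neural and duct adhesion molecule, was lower in WD+IM than in WD (-2.37 ± 0.24, adjusted p = 1.16e-04).

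Signal transducers gave 18 tested genes of 24, of which 4 were lower and 0 higher in UB than in WD, with a median of -0.14 (8.6e-04 with each array centred on its median). In WD+IM against WD 1 was higher and 0 lower (median 0.04), and in UB against WD+IM 0 were higher and 4 lower (median -0.06, and 0.05 with that centring). Of all tested genes 33.0%, 14.7% and 30.3% were called in these comparisons, so the called share of the transducers was below the background in each. The calls of UB against WD were Gab1 (-0.68 ± 0.16, adjusted p = 0.00753), Plcg1 (-0.60 ± 0.20, 0.0458), Pik3r1 (-0.85 ± 0.28, 0.0411) and Akt1 (-0.64 ± 0.14, 0.00517), and 0 of the 4 were kept with the spike batch term. Frs2, the docking protein of the receptors, read 4146 ± 708 in UB, 5618 ± 955 in WD and 6153 ± 792 in WD+IM. It was lower in UB than in WD+IM (-0.57 ± 0.18, adjusted p = 0.0354; 0.0814 with the batch term). Shc1, an adaptor protein, was the transducer called higher in WD+IM than in WD (0.85 ± 0.18, adjusted p = 0.00966).

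**Figure D5:**
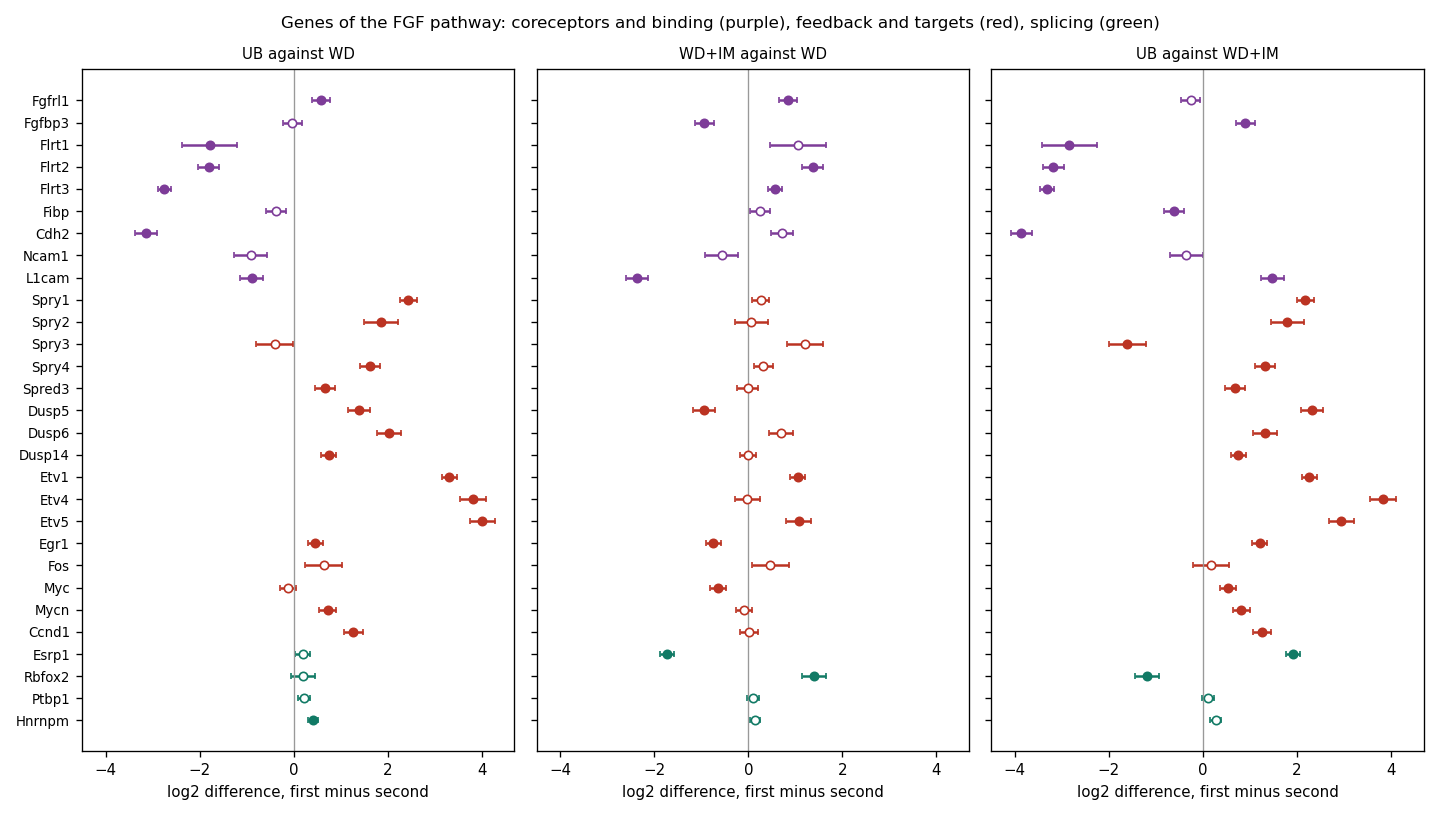
Log2 differences of every tested gene of 3 pathway lists in the 3 comparisons, from the fit by tissue alone, with coreceptors and binding proteins in purple, feedback inhibitors and targets in red and splicing regulators in green. Bars are standard errors and filled symbols are called. Etv4, Etv5, Etv1, Spry1 and Dusp6 lie 2.03 to 4.01 above 0 for UB minus WD, while Flrt3 and Cdh2 lie at -2.75 and -3.14.

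Feedback inhibitors and target genes of FGF signalling gave 16 tested genes of 19. Of these, 13 were higher and 0 lower in UB than in WD, with a median log2 difference of 1.32, where 13.3% of all genes were higher and 19.6% lower and their median was -0.08. Of the 13 calls, 6 were kept with the spike batch term. Etv4 and Etv5, transcription factors induced by FGF and by Gdnf-Ret signals, had UB minus WD differences of 3.81 ± 0.27 (adjusted p = 1.40e-06) and 4.01 ± 0.27 (adjusted p = 8.16e-07). Etv5 read 9384, 8544 and 9104 in UB, 765, 316 and 556 in WD, and 1269.8, 1222 and 933 in WD+IM, and only 1 of its WD values lay above its array's 40th percentile. Etv1, of the same family, differed by 3.31 ± 0.16 (adjusted p = 8.21e-08). Spry1, which restrains both receptor pathways in the duct, read 37055, 32330.5 and 29561 in UB, 6169, 4538 and 7817 in WD, and 6756, 7558 and 7392 in WD+IM, a difference of 2.44 ± 0.18 (adjusted p = 1.80e-06). Dusp6, a feedback phosphatase, differed by 2.03 ± 0.25 (adjusted p = 1.39e-04). These 5 genes were higher in UB while Fgfr1, Fgfr2 and Fgfr3 were lower there, and Etv4 and Etv5 are also among the bud tip markers. Several of them respond to Ret and other receptors as well, so the list does not mark FGF signalling alone.

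In UB against WD+IM 14 of the 16 feedback and target genes were higher and 1 lower (median 1.28), where 13.6% of all genes were higher and 16.6% lower, and 9 of the 15 calls were kept with the batch term. The lower gene, singled out after its values were seen, was Spry3, which lay below the array's 40th percentile on all UB and WD arrays. Spry3 thus entered the counts and medians of this list only through WD+IM, the tissue where it was high. The stricter filter used above for Flrt1 left 15 genes, without Spry3. Of these, 14 were higher and 0 lower in UB than in WD+IM (median 1.31). For UB against WD 13 were higher and 0 lower (median 1.38). For WD+IM against WD 2 were higher and 3 lower (median 0.01). In WD+IM against WD 2 were higher and 3 lower, with a median of 0.04, where 6.49% of all genes were higher and 8.23% lower. The 2 higher genes were Etv1 (1.05 ± 0.16, adjusted p = 0.00106) and Etv5 (1.07 ± 0.27, adjusted p = 0.0198). The 3 lower genes were Dusp5 (-0.94 ± 0.23, adjusted p = 0.0197), Egr1 (-0.74 ± 0.15, adjusted p = 0.00759) and Myc (-0.65 ± 0.17, adjusted p = 0.0265).

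Regulators of FGF receptor splicing gave 4 tested genes of 5. Esrp1, which promotes the epithelial IIIb forms, read 28501, 26584 and 25414 in UB, 22610.0, 22916 and 25031 in WD, and 5919, 9039 and 6637 in WD+IM. UB minus WD was 0.19 ± 0.15 (adjusted p = 0.362), and WD+IM was lower than WD (-1.72 ± 0.15, adjusted p = 5.59e-05). Rbfox2, a splicing factor that acts on Fgfr2, was higher in WD+IM than in WD (1.39 ± 0.26, adjusted p = 0.00381), with means of 6191 ± 1989 and 2339 ± 745. In UB it read 2625 ± 408, lower than WD+IM (-1.19 ± 0.26, adjusted p = 0.00478), a call lost with the spike batch term (adjusted p = 0.139). Hnrnpm, which takes part in the same splicing choice, was higher in UB than in WD (0.41 ± 0.11, adjusted p = 0.0149; 0.169 with the batch term). Esrp2 had no probe set with a single symbol and was not analysed here.

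Genes whose log2 signal followed that of a member over the 9 arrays were found by Pearson correlation with about 15075 other probe sets with 1 symbol, a description in which the points share tissue and batch. Fgfr1 was followed most closely by Snai1 (r = 0.996), Pros1 (0.992) and Plcd1 (0.991). Fgfr2 was followed by Stbd1 (0.986), Slc4a4 (0.985) and Ppargc1a (0.982), and Fgfr3 by Rsrp1 (0.986), LOC100911221 (0.983) and Gmip (0.982). Fgfr4 was followed by LOC106182250 (0.984), Six4 (0.976) and Frmd5 (0.975). For Fgf9 A the highest values were Zfhx3 (0.965), Chchd7 (0.958) and Bend7 (0.957), while Fgf9 B correlated with Fgf9 A at only r = 0.10. For Fgf10 they were Ehd4 (0.958), Reep6 (0.940) and Plpp3 (0.936). Fgf10 reached the filter only through UB and its WD and WD+IM values show only low signal, so nothing is read from its correlations.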

How the data were processed

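Total RNA of 9 pools was labelled with biotin and hybridised to Affymetrix arrays, per the labels' protocols. The authors deposited 1 linear signal intensity per probe set, made with GCOS per the submitters' processing notes (version and summary method: not given in the sources used here). All 9 deposited columns have a 2% trimmed mean of about 2500.0 intensity units. The number of arrays limits the precision, and where pools share embryos p-values measure only the spread between arrays.

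The log2 values were computed from the deposited intensities as log2(intensity + 46.4), with the pooled 10th percentile as pseudocount, which understates changes at low signal. Testing required signal above the array's own 40th percentile on at least 3 of 9 arrays (20330 probe sets, 10809 genes). limma 3.58.1 in R 4.3.3 fitted tissue as the only term with a mean-variance trend, p-values were Benjamini-Hochberg adjusted over all tested probe sets, and the limit was 0.05. The script was tested on simulated data. Each gene is represented by its brightest tested probe set (mean log2). Genes come from the platform annotation: 20826 probe sets have 1 symbol, 436 several and 9780 none, and 57 are controls. Fgf15 is listed as Fgf19 there.

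The members, the gene lists and the spike-ratio sets were chosen with earlier results of these data known. Named genes are all members, at most 5 called genes per list and comparison by smallest p, 10 further genes by name, and the 3 genes most correlated with each tested member. Alternatives covered scaling, pseudocount, filter, model, technical covariates and leaving out each array.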

Additional observations from a re-analysis of the deposited data

How the results depend on the processing

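Over 405 alternative values of the 6 tested FGF genes, 376 kept their direction or their lack of a call, 26 lost the call, 3 gained one and 0 called differences turned sign. The 405 include differences not called in the main fit, which had no call to lose. They also include fits without an array of the tissue not compared, which leave the difference itself unchanged. A further fit among them sets the UB arrays against a single WD+IM array and is no test on its own. Calls were lost most often for WD+IM against WD, in 9 of 23 alternatives for Fgfr3 and 7 of 23 for Fgfr1. The count of FGF genes called for UB against WD fell from 3 to 1 with the spike batch term, and was 2 to 4 with 1 array left out. For WD+IM against WD it fell from 4 to 1 with the beta-actin covariate, to 2 within the arrays of low spike ratio and to 2 when a gene's tested probe sets were averaged, and was 2 to 4 with 1 array left out. For UB against WD+IM it was 3 with any array left out. The beta-actin covariate ended the calls of Fgfr1 for UB against WD (adjusted p = 0.106) and of Fgfr1 and Fgfr3 for WD+IM against WD (0.179 and 0.256). A fit of 2 tissues alone and the mean of probe sets ended that of Fgfr1 for WD+IM against WD (0.060 and 0.058), the absence of a filter that of Fgfr3 (0.0549), and quantile normalization that of Fgfr3 for UB against WD+IM (0.0683).

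Of all probe sets, 6073 were called for UB against WD, 798 with the batch term for spike sets, 3277 when actin integrity was a covariate and 3743 to 6488 with 1 array left out, the lowest without the first UB array. For WD+IM against WD 2578 were called, 826 with the covariate, 1444 within the low set and 1779 to 2715 with 1 array left out. For UB against WD+IM 5176 were called, 2414 with the batch term, 2991 within the high set (where the lone WD+IM array is assumed to vary like the UB arrays) and 3638 to 5350 with 1 array left out. The causes were not tested. Of the calls for UB against WD 37.8% were higher, 50.1% after quantile normalization and 53.3% with median centring, which moved the median difference of all genes from -0.08 to 0.06. For WD+IM against WD these shares were 44.3%, 48.9% and 49.1%, and for UB against WD+IM 43.0%, 49.9% and 52.9%.

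Replicate numbers did not pair the arrays: same-numbered arrays correlated, after removal of the tissue means, at 0.07, 0.09 and 0.28 for UB with WD, 0.06, -0.05 and -0.28 for WD+IM with WD, and -0.35, -0.08 and -0.34 for UB with WD+IM. With the replicate block 5339, 2194 and 4607 probe sets and 3, 3 and 3 FGF genes were called for UB against WD, WD+IM against WD and UB against WD+IM, and the call of Fgfr3 for WD+IM against WD was lost (adjusted p = 0.053). Dim signal limits Fgf1, Fgf2, Fgf7 and Fgf10.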
